A study of Mus musculus with 8 samples.

Results

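The genes described here are 30 genes of T cells and cytotoxic lymphocytes: the chains of the T cell receptor complex, its kinases and co-receptors, costimulatory and checkpoint receptors, cytokine receptors, and genes of cytotoxic cells. They were chosen by symbol from the 23171 genes of the count table. Of the 30, 25 had a row in the table and 21 passed the filter on low counts. The constant chains of the receptor itself, Trdc, Trac, Trbc1, Trbc2 and Tcrg-C1, were not analysed here.

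Epidermal RNA was sequenced after imiquimod treatment. Imiquimod activates a Toll-like receptor and gives mouse skin a psoriasis-like inflammation. A knockout of Hnrnpu restricted to the epidermis (cKO, 4 libraries) was set against control mice (WT, 4 libraries). Both genotypes received imiquimod, and the labels put all libraries in the same batch. The labelled cell type is keratinocytes, and neither the promoter behind the deletion nor the strain and age of the mice is stated in the sources used here.

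T cells recognise antigen through a receptor of variable chains that signals through the CD3 chains and CD247, with the kinases LCK and ZAP70 behind them. CD4 and CD8 are co-receptors of most αβ T cells, while CTLA4 and FOXP3 are hallmarks of regulatory T cells, which restrain inflammation. Mouse epidermis is home to dendritic epidermal T cells, which carry a γδ receptor and mostly lack CD4 and CD8, and imiquimod also draws γδ T cells that make interleukin-17 into the skin.

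Libraries held 37158621 to 38865722 counts. Hnrnpu, the targeted gene, had 190, 373, 355 and 312 CPM (counts scaled to library size) in cKO libraries 1 to 4, against 455, 424, 431 and 439 CPM in WT libraries 1 to 4. The groups did not overlap, but the difference did not pass the test across all genes (log2 fold change -0.51 ± 0.19 SE, edgeR quasi-likelihood test, adjusted p = 0.191). Which part of the gene is deleted is not stated in the sources used here, so this per-gene count checks the genotype labels only in part. Keratinocyte markers summed to between 61775 and 87163 CPM in cKO and between 70102 and 91520 CPM in WT, and the T cell markers to between 13.6 and 37.6 CPM in cKO and between 16.8 and 65.1 CPM in WT. T cell RNA was thus a small fraction of what was sequenced, and the counts behind single members were low. Of the 14004 genes tested, 185 (1.32%) were called at an adjusted p below 0.05, 94 (0.671%) higher and 91 (0.65%) lower in cKO.

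Among the 21 tested members, 1, Ctla4, was called higher in cKO epidermis and none was called lower. The background for a call in the higher direction was 0.671% of tested genes. Ctla4 passed the filter through the cKO libraries alone, so it had to differ to be tested. Its call was lost without cKO 1 or without any single WT library. The CD3 chains, CD247 and the pan-leukocyte gene Ptprc overlapped between genotypes and did not pass the test. Lck and Cd4 did not pass either, and Cd8a, Foxp3 and Cd27 were too low to be tested. For each of these genes the lowest cKO library was above the highest WT library, as it was for 4.07% of all genes. The members were chosen with earlier results of these data known, so that share is not a like background. In bulk epidermis, a change in the number of cells of a type cannot be told apart from a change in RNA per cell. The members split evenly in sign, with 11 log2 fold changes above 0 and 10 below, and their median was 0.05, against 0.01 over all tested genes. An unadjusted p below 0.05 was found for 5 members (Lck, Cd2, Cd4, Ctla4 and Gzmb), against 18.6% of all tested genes.

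**Figure D1:**
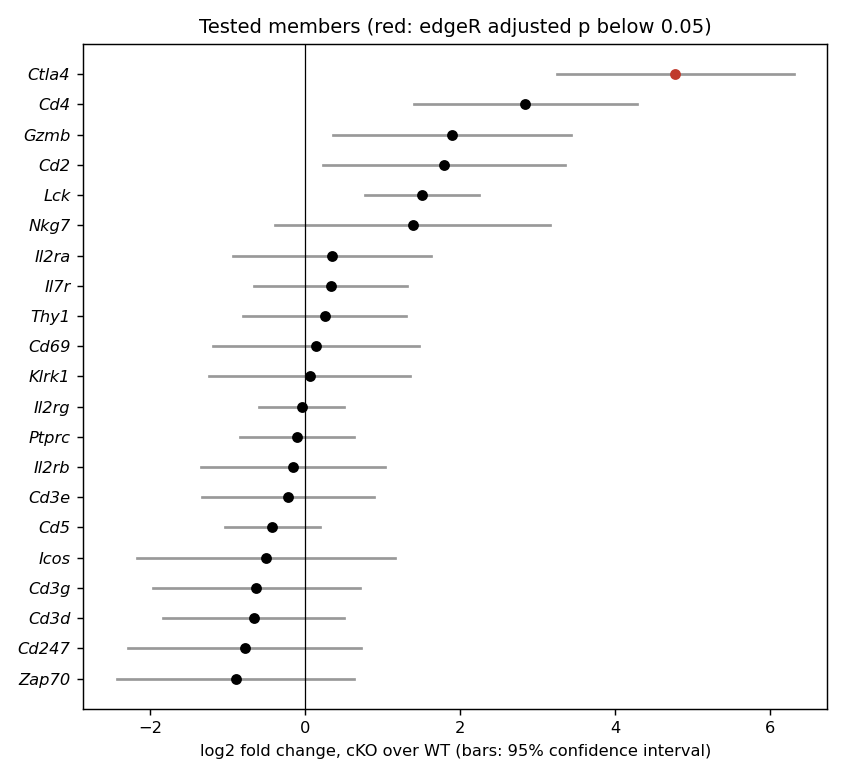
Log2 fold changes (cKO over WT, x axis) of the 21 tested members, with points for the edgeR estimate and bars for its 95% confidence interval. Ctla4 is the 1 member past an adjusted p of 0.05 and lies highest at 4.77, and the intervals of all CD3 chains cross 0.

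The upstream sequences of 3 of these genes are shown because they stand for the 3 patterns met here: Ctla4, which passed the test, Lck, which separated the genotypes without passing it, and Cd3e, for which the genotypes overlapped. Each is the 250 bases before an annotated start site, 5′ to 3′ on the gene's strand, from RefSeq on the GRCm38.p6 build. They are chr1:60908775-60909024 (plus strand) for Ctla4, chr4:129573642-129573891 and chr4:129558373-129558622 (minus strand) for the upstream and downstream start sites of Lck, and chr9:45009612-45009861 (minus strand) for Cd3e. Capitals mark matches on either strand to 3 motifs. The core of ETS family factors was searched as AGGAAG. The core of RUNX factors was searched as TGTGGT. The core of GATA factors was searched as AGATAA.

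Ctla4: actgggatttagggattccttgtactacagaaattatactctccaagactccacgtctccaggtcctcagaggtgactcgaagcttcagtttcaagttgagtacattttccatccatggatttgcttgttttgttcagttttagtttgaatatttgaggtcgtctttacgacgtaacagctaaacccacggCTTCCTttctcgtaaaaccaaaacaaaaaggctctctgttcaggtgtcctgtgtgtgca
Lck upstream site: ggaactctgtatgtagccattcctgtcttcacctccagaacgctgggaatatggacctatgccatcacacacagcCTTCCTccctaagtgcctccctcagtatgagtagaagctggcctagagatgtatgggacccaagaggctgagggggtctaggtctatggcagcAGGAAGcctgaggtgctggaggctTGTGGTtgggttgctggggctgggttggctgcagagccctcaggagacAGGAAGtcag
Lck downstream site: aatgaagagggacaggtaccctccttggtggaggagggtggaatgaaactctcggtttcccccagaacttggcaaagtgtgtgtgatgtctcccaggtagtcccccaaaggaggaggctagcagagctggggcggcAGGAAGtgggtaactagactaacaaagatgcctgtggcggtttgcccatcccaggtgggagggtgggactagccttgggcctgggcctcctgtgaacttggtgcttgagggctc
Cd3e: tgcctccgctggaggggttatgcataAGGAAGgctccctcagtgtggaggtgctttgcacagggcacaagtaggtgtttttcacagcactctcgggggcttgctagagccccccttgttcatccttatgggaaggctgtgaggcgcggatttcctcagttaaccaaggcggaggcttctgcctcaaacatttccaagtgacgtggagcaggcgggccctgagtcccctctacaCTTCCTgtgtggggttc

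ETS letters occurred in all 4 of these windows, RUNX letters in the upstream Lck window and GATA letters in none. Windows were found for 18 members, 23 in all because some genes have several start sites. ETS letters occurred in 16 of the 23 (69.6%), against 29.5% of the 32851 windows of the same length in the table. RUNX letters occurred in 6 (26.1%), against 14.0% of all windows, and GATA letters in 3 (13.0%), against 9.99%. The ETS and RUNX factors are known regulators of lymphocyte genes, but a match is a description of these letters and not evidence of binding.

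The CD3 chains and CD247 carry the signal of both αβ and γδ receptors and so mark T cells of every kind. Cd3g had 7.13, 10.6, 12.8 and 3.90 CPM in cKO libraries 1 to 4, and 5.82, 3.76, 17.2 and 26.6 CPM in WT libraries 1 to 4. Cd3e had 3.80, 4.85, 4.66 and 1.78 CPM in cKO, and 2.46, 1.63, 6.17 and 7.33 CPM in WT. The genotypes overlapped for both genes, with WT 4 and WT 3 the highest libraries and WT 2 the lowest in each.

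Cd3d had 2.11, 1.93, 3.28 and 0.952 CPM in cKO, and 1.47, 1.58, 4.30 and 5.81 CPM in WT. Cd247, the zeta chain that recruits ZAP70, had 5.07, 3.70, 8.08 and 2.43 CPM in cKO, and 3.22, 1.77, 9.55 and 18.6 CPM in WT. Both again overlapped, with WT 4 highest. The highest WT library stood 10.5-fold above the lowest for Cd247 and 7.07-fold for Cd3g, wider than the 3.33-fold and 3.28-fold ranges within cKO. The log2 fold changes were -0.67 ± 0.52 (SE) for Cd3d, -0.22 ± 0.49 for Cd3e, -0.63 ± 0.59 for Cd3g and -0.78 ± 0.67 for Cd247, with edgeR adjusted p-values of 0.528, 0.858, 0.612 and 0.571. The intervals were wide, and that of Cd3e ran from -1.33 to 0.89, on both sides of 0. The value for Cd3e changed sign when single libraries were left out, between -0.50 and 0.14.

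Added over the 3 CD3 genes and Cd247 on the length-scaled FPKM scale, the summed level was 11.6, 14.4, 20.2 and 6.45 in cKO libraries 1 to 4. In WT libraries 1 to 4 it was 8.82, 5.89, 24.0 and 36.5. WT libraries thus held the 2 highest sums and also the lowest. Across the 21 tested members, WT 4 held the highest level of 10 and WT 2 the lowest of 13. The ratio of the highest to the lowest library was wider within WT than within cKO for 17 of the 21 and wider within cKO for 4 (Cd5, Lck, Klrk1 and Nkg7). The 17 include Cd4 and Ctla4, which had 0 counts in the lowest WT library, so their WT ratio has no finite value. The lowest of all 8 libraries was cKO 4 for 5 members.

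**Figure D2:**
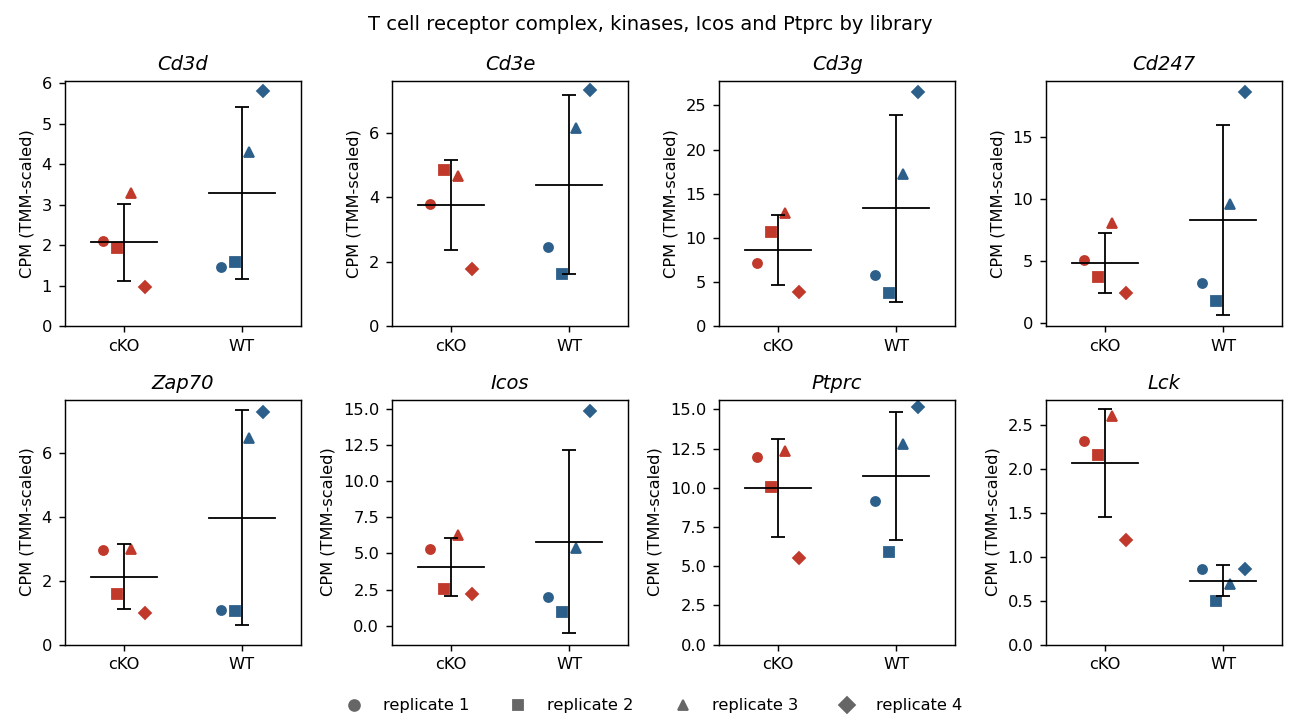
TMM-scaled CPM (y axis) of the CD3 chains, Cd247, Zap70, Icos, Ptprc and Lck in each cKO and WT library, with the mean as a line and the SD as a bar (n = 4 each). WT libraries 3 and 4 stand above WT libraries 1 and 2 for every gene but Lck, and Lck alone has all cKO libraries above all WT libraries.

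ZAP70 and LCK are the kinases that start signalling at the receptor, LCK by phosphorylating the CD3 chains and ZAP70 by docking to them. They behaved differently from each other. Lck had 2.31, 2.16, 2.61 and 1.19 CPM in cKO libraries 1 to 4, against 0.865, 0.498, 0.694 and 0.856 CPM in WT libraries 1 to 4. Every cKO library was above every WT library, with the narrowest gap at cKO 4. Lck was 2.83-fold higher by the fit (log2 fold change 1.499 ± 0.33 SE, 95% interval 0.76 to 2.23), with an edgeR adjusted p of 0.0545, just short of the threshold. A two-sided exact permutation test of the 8 libraries gave p = 0.0286, its lowest possible value. Without cKO 4 the edgeR adjusted p was 0.0447, and it lay between 0.0653 and 0.138 without any other single library. With all libraries DESeq2 called Lck (adjusted p = 5.62e-04) and limma-voom did not (adjusted p = 0.0827).

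Zap70 had 2.96, 1.57, 2.99 and 0.975 CPM in cKO, and 1.07, 1.05, 6.47 and 7.28 CPM in WT. It followed the CD3 pattern, with WT 3 and WT 4 highest and the genotypes overlapping (log2 fold change -0.90 ± 0.68 SE, adjusted p by edgeR = 0.518).

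The ratio of 2 genes within a library, on the FPKM scale, does not depend on how libraries are scaled. Cd3e over Ptprc was 1.23, 1.87, 1.46 and 1.25 in cKO libraries 1 to 4, against 1.04, 1.07, 1.86 and 1.87 in WT libraries 1 to 4. Its mean log2 value was 0.51 ± 0.28 in cKO and 0.49 ± 0.47 in WT (SD, n = 4 each), a difference of 0.02 (two-sided exact permutation p = 0.971). This was the only ratio with enough reads in every library to be tested as planned. Lck over Cd3e, looked at after the levels had been seen and not tested, was 0.407, 0.297, 0.373 and 0.445 in cKO, against 0.234, 0.204, 0.0751 and 0.0779 in WT. The groups did not overlap, and WT 3 and WT 4, the libraries with the most CD3, had the lowest ratios. Lck stayed between 0.498 and 0.865 CPM in WT, so its ratio had to be lowest in WT where Cd3e, the denominator, was highest. Zap70 over Cd3e, added likewise, was 0.397, 0.164, 0.326 and 0.278 in cKO and 0.222, 0.327, 0.533 and 0.504 in WT, and overlapped.

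**Figure D3:**
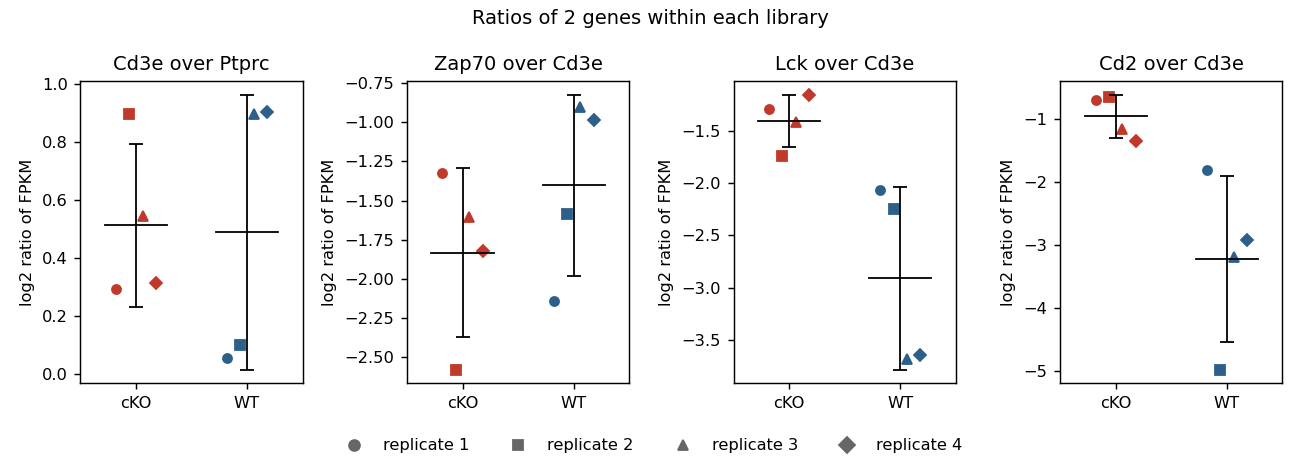
Log2 ratios of FPKM between 2 genes (y axis) in each cKO and WT library, with the mean as a line and the SD as a bar (n = 4 each). Cd3e over Ptprc and Zap70 over Cd3e overlap between genotypes, while Lck over Cd3e and Cd2 over Cd3e are higher in every cKO library, with Cd2 resting on as few as 1 read in WT 2.

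The co-receptors Cd4 and Cd8a, which bind MHC class II and class I on the presenting cell, were read from few counts. Cd4 had 31, 26, 20 and 24 counts in cKO libraries 1 to 4, against 7, 0, 4 and 2 counts in WT libraries 1 to 4. Cd8a had 27, 18, 9 and 9 counts in cKO, against 4, 2, 3 and 2 in WT. Neither gene overlapped between genotypes. Cd4 reached the filter through the cKO libraries alone, so it had to differ to be tested (log2 fold change 2.84 ± 0.64 SE, 95% interval 1.40 to 4.27, edgeR adjusted p = 0.0582). Cd8a did not reach the filter. The counts summed over libraries, set against the summed library totals, gave ratios of cKO over WT of 7.60 for Cd4 (exact 95% interval 4.25 to 14.8) and 5.61 for Cd8a (2.93 to 11.8). These intervals cover counting error only and not the spread between mice. Without WT 1, which had 7 of the 13 WT reads, the Cd4 ratio was 12.3.

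In cKO libraries 1 to 4, Cd8a over Cd4 was 0.966, 0.768, 0.499 and 0.416 in FPKM, and the WT libraries held too few reads for a ratio. CD4 can also occur on some dendritic cells and macrophages. Markers of Langerhans and dendritic cells and of macrophages are therefore given with the regulatory genes.

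Ctla4, an inhibitory receptor that competes with CD28 for its ligands and is abundant on regulatory T cells, had 70, 36, 29 and 22 counts in cKO libraries 1 to 4, against 2, 2, 0 and 1 in WT libraries 1 to 4. On the CPM scale this was 1.82, 1.01, 0.700 and 0.523 in cKO and 0.0524, 0.0553, 0 and 0.0268 in WT. The groups were far apart, and the lowest cKO library had 22 reads where the highest WT library had 2. Ctla4 rose 27.4-fold by the fit (log2 fold change 4.77 ± 0.68 SE, 95% interval 3.25 to 6.30, edgeR adjusted p = 0.0262). The exact permutation test gave its lowest possible value, p = 0.0286 (two-sided). The ratio of summed counts was 30.7 (exact 95% interval 12.9 to 96.0).

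Ctla4 too passed the filter through the cKO libraries alone. The edgeR call was lost when some single libraries were left out: adjusted p was 0.0506 without cKO 1 and 0.058, 0.0687, 0.0793 and 0.0875 without WT 1, 2, 3 and 4, while the log2 fold change stayed between 4.33 and 5.08. DESeq2 and limma-voom called Ctla4 with all libraries (adjusted p = 1.06e-06 and 0.0276).

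Foxp3, the transcription factor that defines regulatory T cells, had 27, 12, 32 and 9 counts in cKO, against 7, 2, 6 and 4 in WT. Cd27, a costimulatory receptor of the TNF receptor family, had 9, 4, 24 and 3 counts in cKO, against 1, 0, 1 and 0 in WT. For both, every cKO library was above every WT library, though for Foxp3 the lowest cKO library had 9 counts and the highest WT library 7. Neither reached the filter. The ratios of summed counts were 4.12 for Foxp3 (exact 95% interval 2.48 to 7.20) and 19.6 for Cd27 (5.08 to 167). The Cd27 ratio rested on 2 WT reads and on cKO 3, and was 10.5 without that library.

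Cd28, the activating receptor that shares its ligands with CTLA4, had 5, 7, 9 and 4 counts in cKO and 2, 4, 0 and 2 in WT, so the genotypes met at 4 counts. Foxp3 over Cd4 within the cKO libraries was 0.769, 0.408, 1.41 and 0.331 in FPKM.

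**Figure D4:**
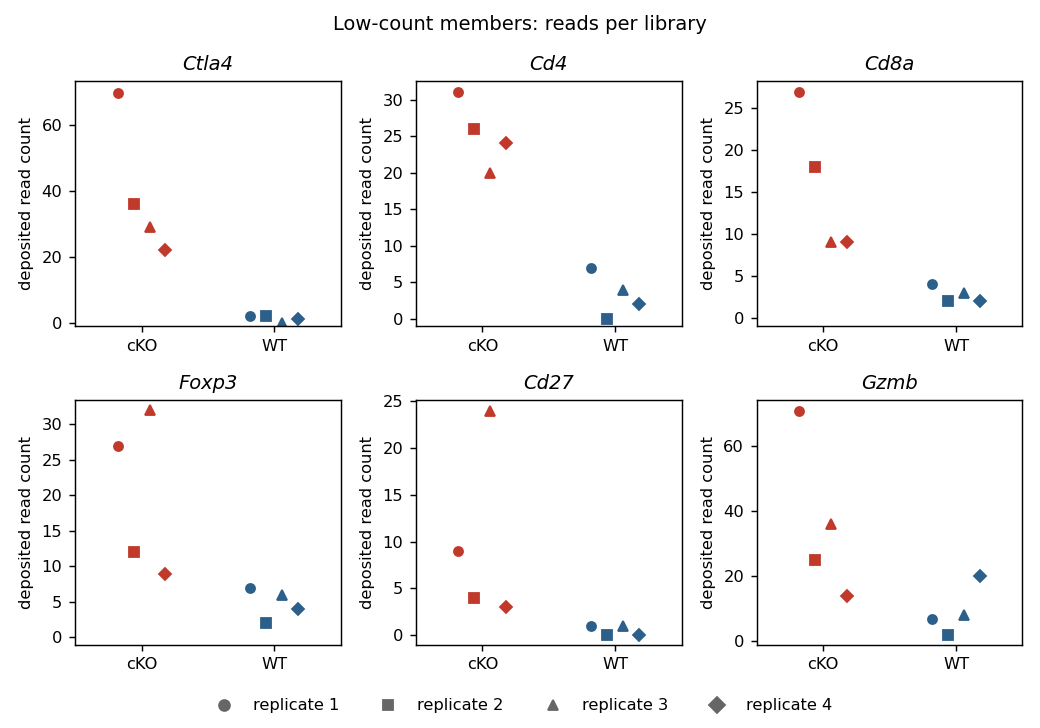
Deposited read counts (y axis) of Ctla4, Cd4, Cd8a, Foxp3, Cd27 and Gzmb in each cKO and WT library. All cKO libraries lie above all WT libraries for every gene but Gzmb, where WT 4 with 20 reads lies above cKO 4 with 14.

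In all, 6 of the 25 measured members (Lck, Cd4, Cd8a, Ctla4, Foxp3 and Cd27), or 24%, had every cKO library above every WT library in CPM, and none had the reverse. Over all 23171 genes with a count these shares were 4.07% and 4.13%. The members were chosen with earlier results of these data known, and all 6 but Lck had few WT reads. The share of all genes is therefore not a like background, and no conclusion is drawn from the 24%. Among the 21 tested members, 3 (14.3%) did not overlap, all higher in cKO, against 5.26% of tested genes in that direction and 11.1% in either. Cd4 and Ctla4, 2 of these 3, were tested only because their cKO libraries reached the filter, so the share supports nothing. DESeq2 called the same 6 members, against 7.51% of the genes it tested, and edgeR without the low-count filter called Ctla4 alone, against 1.51% of genes. With limma-voom Ctla4 was also the 1 member called, against 1.21% of genes. Cd4, Cd8a, Ctla4, Foxp3 and Cd27 were added up after their values were seen, and because they were picked for lying higher in every cKO library, their sum had to separate the genotypes. It was 164, 96, 114 and 67 in cKO libraries 1 to 4, against 21, 6, 14 and 9 in WT libraries 1 to 4.

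Markers of other cell types were read in the same fit. Of the 7 tested markers of Langerhans and dendritic cells, 6 had a log2 fold change above 0 and none was called, and their list summed to between 268 and 643 CPM in cKO and between 290 and 398 CPM in WT. Cd207, the langerin gene of Langerhans cells, had 5.88, 25.9, 15.9 and 3.21 CPM in cKO and 5.06, 2.99, 6.28 and 4.68 CPM in WT. Cd207 was thus high in cKO 2 and cKO 3. Of the members without overlap, Ctla4, Cd4 and Cd8a were highest in cKO 1, and Lck, Foxp3 and Cd27 in cKO 3. Macrophage markers summed to between 28.9 and 63.6 CPM in cKO and between 48.9 and 75.5 CPM in WT, with 1 of 7 tested above 0. The 4 melanocyte markers all had log2 fold changes above 0, with a median of 1.11 and none called, and summed to between 48.8 and 103 CPM in cKO and between 28.1 and 46.4 CPM in WT, without overlap. Dct, Tyrp1 and Mlana, genes of pigment cells, each had every cKO library above every WT library (edgeR adjusted p = 0.0905, 0.06 and 0.0779). The part of these other cells in the values of Cd4 and the further members was not tested. The B cell markers Cd79a, Pax5 and Jchain had at most 5 counts in any library.

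The other costimulatory members overlapped. Icos, a costimulatory receptor of activated T cells, had 5.33, 2.58, 6.25 and 2.16 CPM in cKO and 2.02, 0.968, 5.36 and 14.9 CPM in WT, with WT 4 the highest (log2 fold change -0.51 ± 0.74 SE, edgeR adjusted p = 0.768). Cd2, an adhesion receptor of T and NK cells, had 1.77, 2.32, 1.57 and 0.523 CPM in cKO and 0.524, 0.0276, 0.4999 and 0.723 CPM in WT. Only cKO 4 lay among the WT values (log2 fold change 1.79 ± 0.70 SE, edgeR adjusted p = 0.212). Cd5, which dampens receptor signalling, had 4.45, 7.002, 4.61 and 2.78 CPM in cKO and 6.999, 7.55, 5.53 and 5.25 CPM in WT (log2 fold change -0.43 ± 0.27 SE, adjusted p by edgeR = 0.439), and its WT libraries did not follow the CD3 order.

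The interleukin receptors and the surface genes gave no call. Il2ra and Il2rb, the private and shared chains of the interleukin-2 receptor, and Il2rg, the common gamma chain, had log2 fold changes of 0.35 ± 0.57 (SE), -0.16 ± 0.53 and -0.05 ± 0.24, with edgeR adjusted p-values of 0.799, 0.908 and 0.948. Il7r, needed for T cell survival, stood at 0.33 ± 0.44 with adjusted p = 0.744. Il2rg was the steadiest of them, between 7.11 and 8.96 CPM in cKO and between 5.53 and 12.6 CPM in WT. Ptprc, the CD45 gene of all leukocytes, had 12.0, 10.1, 12.3 and 5.54 CPM in cKO and 9.18, 5.89, 12.8 and 15.1 CPM in WT, an overlap throughout (log2 fold change -0.11 ± 0.33 SE, edgeR adjusted p = 0.898). Thy1, an abundant surface protein of mouse T cells that fibroblasts and other cells also carry, stood at 0.25 ± 0.47 with adjusted p = 0.828. Cd69, an early activation marker kept on resident cells, stood at 0.13 ± 0.59 with adjusted p = 0.934.

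The cytotoxic members were Gzmb, Klrk1 and Nkg7, and none of these 3 passed. Gzmb, the granzyme B gene, had 71, 25, 36 and 14 counts in cKO libraries 1 to 4, against 7, 2, 8 and 20 in WT libraries 1 to 4. Its values overlapped through WT 4, and the difference did not pass (log2 fold change 1.89 ± 0.68 SE, edgeR adjusted p = 0.185). Leaving out 1 library moved the log2 fold change between 1.33 and 2.58. Gzmb over Cd3e in FPKM was 0.488, 0.145, 0.187 and 0.187 in cKO, against 0.0747, 0.0340, 0.0362 and 0.0732 in WT. This ratio did not overlap, but it was not tested because WT 1, 2 and 3 had under 10 Gzmb reads. Klrk1, the NKG2D receptor by which cytotoxic lymphocytes and epidermal γδ T cells sense stressed cells, had 0.650, 1.57, 2.41 and 0.547 CPM in cKO and 0.708, 0.581, 1.61 and 2.09 CPM in WT (log2 fold change 0.05 ± 0.58 SE, edgeR adjusted p = 0.975). Nkg7, a granule membrane protein, had 0.364, 2.38, 1.13 and 0.309 CPM in cKO and 0.760, 0.166, 0.555 and 0.107 CPM in WT (log2 fold change 1.38 ± 0.79 SE, adjusted p by edgeR = 0.387). The list of 9 cytotoxic and NK cell markers summed to between 2.21 and 9.58 CPM in cKO and between 2.07 and 5.19 CPM in WT. Of its 5 tested genes, 4 had a log2 fold change above 0 and none was called. The members Gzmb, Nkg7 and Klrk1 were among these 4. The defining NK cell genes Ncr1 and Eomes had at most 5 counts in any library.

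**Figure D5:**
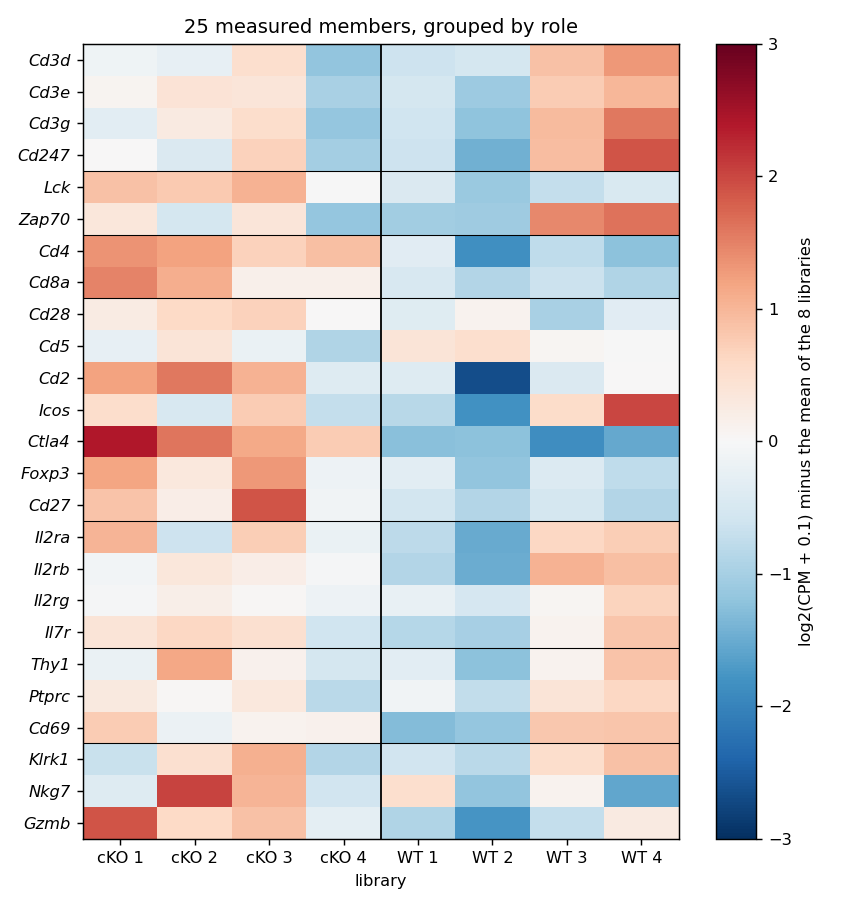
The 25 measured members (rows, grouped by role) in each library (columns, cKO left of WT), coloured by log2(CPM + 0.1) minus the gene's mean over the 8 libraries. WT 2 is low for most genes, WT 4 is high for the CD3 chains, Cd247, Zap70 and Icos, and the cKO side is high for Ctla4, Cd4, Cd8a, Foxp3, Cd27 and Lck.

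By mean FPKM, the length-scaled unit, Cd3g and Thy1 were the most abundant members, at 8.55 and 9.90 FPKM in cKO and 12.7 and 8.17 FPKM in WT. Il2rg (4.91 in cKO and 4.87 in WT), Cd3e (2.51 and 2.82) and Cd5 (2.20 and 2.88) followed. At the other end stood Ctla4 at 0.478 FPKM in cKO and 0.0156 in WT, Cd4 at 0.189 in cKO and 0.0248 in WT, Foxp3 at 0.132 and 0.0320, Cd8a at 0.131 and 0.0233, Cd27 at 0.143 and 0.00731, and Cd28 at 0.0356 and 0.0117. Every member whose groups did not overlap except Lck therefore came from the 6 lowest of the 25.

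Genes that act beside the members gave few calls. Of 20 genes of receptor-proximal signalling, 17 were tested and 0 called by edgeR or limma-voom, with 0 at an unadjusted p below 0.05, 12 log2 fold changes below 0 and a median of -0.21. Plcg1, the phospholipase that the receptor activates, stood at -0.11 ± 0.09 (SE, edgeR adjusted p = 0.521), Rasgrp1 at 0.00 ± 0.14 (adjusted p = 0.997) and the adaptor Trat1 at 0.98 ± 0.63 (adjusted p = 0.441). DESeq2 called 1 gene of the list, Ubash3a, a phosphatase family brake on receptor signalling that was below the filter, at 8, 12, 19 and 10 counts in cKO and 2, 0, 0 and 0 in WT.

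Of 18 T cell cytokine genes, 5 were tested and 0 called by edgeR or limma-voom. An unadjusted p below 0.05 was found for 1, against 18.6% of all tested genes. All 5 log2 fold changes were below 0, with a median of -1.48. Areg, a ligand of the EGF receptor that keratinocytes make as well as T cells, had 19.6, 9.33, 8.52 and 23.1 CPM in cKO and 47.5, 22.3, 51.9 and 46.9 CPM in WT. Only WT 2 lay among the cKO values (log2 fold change -1.48 ± 0.37 SE, adjusted p by edgeR = 0.0808), and DESeq2 called Areg. Il17a had 2.18, 0.112, 0.458 and 0.809 CPM in cKO and 0.446, 0.332, 16.3 and 6.13 CPM in WT, so the WT level came from WT 3 and WT 4 (log2 fold change -2.70 ± 1.22 SE, edgeR adjusted p = 0.279). Il17f stood at -2.14 ± 0.99 with adjusted p = 0.285, and Ltb at -0.42 ± 0.54 with adjusted p = 0.726. Ifng, Il2, Il4, Il5 and Il13 had at most 4 counts in any library.

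Of 26 further cytotoxic and NK genes, 23 had a row, 10 were tested and 0 were called by edgeR or limma-voom, with 0 at an unadjusted p below 0.05. Of these 10, 2 log2 fold changes were above 0 and 8 below, with a median of -0.18. Tyrobp and Fcer1g, signalling adaptors that myeloid cells also make, stood at -0.05 ± 0.22 (SE, adjusted p by edgeR = 0.93) and -0.47 ± 0.36 (adjusted p = 0.516). Gzmc and Prf1, the perforin gene, stood at -0.32 ± 0.27 (adjusted p = 0.569) and 0.68 ± 0.66 (adjusted p = 0.624). DESeq2 called 1 gene of the list, the granzyme gene Gzmm, which was below the filter, at 50, 10, 24 and 17 counts in cKO and 7, 7, 9 and 2 in WT.

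Of 35 genes of epidermal γδ and tissue-resident T cells, 26 had a row and 23 were tested. EdgeR called 1, against 1.32% of all tested genes, and limma-voom called 0. Of the 23, 6 had an unadjusted p below 0.05, against 18.6% of all tested genes. No overlap was found for 2 higher and 2 lower in cKO, against 11.1% of tested genes in either direction. Zbtb16, which encodes the PLZF factor of innate-like T cells and is also made outside lymphocytes, had 14.4, 7.42, 21.6 and 17.4 CPM in cKO libraries 1 to 4, against 5.22, 4.17, 2.53 and 2.44 CPM in WT libraries 1 to 4. It rose 4.24-fold (log2 fold change 2.08 ± 0.36 SE, edgeR adjusted p = 0.0337), with no overlap. Its libraries did not follow the CD3 order, and the cells that made it were not tested. Zbtb16 lost the call in limma-voom (adjusted p = 0.054), in limma on log2(FPKM + 1) (adjusted p = 0.0598) and without cKO 1, cKO 3 or any single WT library, with adjusted p up to 0.108.

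In the same list Bcl11b, a T lineage factor that keratinocytes also express, had 110, 139, 116 and 116 CPM in cKO and 158, 157, 172 and 160 CPM in WT, with no overlap (log2 fold change -0.42 ± 0.10 SE, edgeR adjusted p = 0.06). Scart2, a scavenger receptor known from mouse γδ T cells, had 1.95, 0.588, 2.29 and 1.28 CPM in cKO and 0.393, 0.221, 0.528 and 0.375 CPM in WT, also with no overlap (log2 fold change 2.004 ± 0.47 SE, edgeR adjusted p = 0.0652). Cd44 stood at -0.57 ± 0.15 (adjusted p = 0.096) and Maf at -0.85 ± 0.36 (adjusted p = 0.243). DESeq2 called Zbtb16, Bcl11b, Scart2 and Cd44, against 7.51% of the genes it tested. For 8 of the 23 tested genes of this list WT 3 and WT 4 were the 2 highest libraries, as they were for 8 of the 21 tested members, the CD3 chains among them. The share of all tested genes with this order was not counted, so whether it is particular to these genes was not tested. Cxcr6 and Itgae, homing and retention receptors of resident T cells chosen here after their values were seen, were 2 of the 8 from this list. Cxcr6 had 9.34, 6.25, 15.7 and 5.11 CPM in cKO and 5.06, 3.51, 26.5 and 44.5 CPM in WT, and Itgae had 9.78, 10.2, 13.6 and 3.54 CPM in cKO and 4.95, 3.10, 20.8 and 30.6 CPM in WT.

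Of 17 further checkpoint and costimulatory genes, 11 were tested and 0 called by edgeR or limma-voom. An unadjusted p below 0.05 was found for 2, against 18.6% of all tested genes. The TNF receptor family members Tnfrsf4 and Tnfrsf18, which are abundant on regulatory T cells, stood at 0.52 ± 0.22 and 0.69 ± 0.28 (SE, edgeR adjusted p = 0.236 for each). Tnfrsf4 did not overlap, at 4.86, 5.52, 4.49 and 7.57 CPM in cKO and 4.09, 3.07, 4.05 and 4.42 CPM in WT. Pdcd1, the PD-1 gene, had 1.98, 0.616, 3.04 and 1.45 CPM in cKO and 1.63, 0.995, 9.39 and 9.15 CPM in WT (log2 fold change -1.57 ± 0.75 SE, adjusted p by edgeR = 0.3). The high values of Pdcd1 were those of WT 3 and WT 4. Cd101 stood at -0.76 ± 0.39 (adjusted p = 0.33). DESeq2 called 1 gene of the list, Tigit, an inhibitory receptor below the filter, at 14, 8, 34 and 16 counts in cKO and 5, 0, 4 and 2 in WT.

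Of 34 genes for ligands of the members, 31 had a row, 25 were tested and 0 were called by edgeR or limma-voom. An unadjusted p below 0.05 was found for 5, against 18.6% of all tested genes. Of the log2 fold changes 21 were above 0, 10 of them of genes of the Skint family. B2m, the shared chain of MHC class I, stood at 0.47 ± 0.16 (SE, adjusted p by edgeR = 0.166) and H2-D1 at 0.08 ± 0.15 (adjusted p = 0.822). Icosl, the ligand of ICOS, had 12.4, 11.0, 6.63 and 16.7 CPM in cKO and 18.6, 28.8, 19.4 and 27.1 CPM in WT. Its cKO libraries were all below its WT libraries (log2 fold change -1.01 ± 0.27 SE, adjusted p by edgeR = 0.0905), and DESeq2 called it. Skint5, of the keratinocyte Skint family whose founding member selects epidermal γδ T cells in the thymus, had 1.33, 40.4, 28.9 and 0.4996 CPM in cKO and 2.41, 1.91, 2.28 and 0.830 CPM in WT. Only cKO 2 and cKO 3 stood out (log2 fold change 3.26 ± 1.17 SE, adjusted p by edgeR = 0.183), the libraries in which Cd207 was also high.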

How the data were processed

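RNA from 8 epidermis samples, 4 cKO and 4 WT, grouped by the genotype in their labels, was read from 2 tables. The authors deposited unnormalized read counts for each gene symbol, and a second table with FPKM for the same libraries. HISAT2 and HTSeq were used, per the submitters' processing notes; build, annotation, strand setting and the handling of shared reads: not given in the sources used here. Antisense or near-identical genes could therefore not be separated. FPKM served for ratios, order of levels and alternative tests.

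Counts were filtered with filterByExpr (minimum count 10, about 0.262 CPM), which left 14004 of 23171 genes, scaled with TMM factors and fitted without covariates in edgeR 4.0.16 under R 4.3.3 (quasi-likelihood test). Benjamini-Hochberg adjustment ran over the 14004 genes, with calls below 0.05. Standard errors come from the F statistic. Levels are TMM-scaled CPM. Exact permutation tests ran over the 70 splits of 4 against 4 on log2(CPM + 0.1), and on log2 FPKM ratios with 0.01 FPKM added, where both genes had at least 10 counts in every library. The labels do not say beyond the mice per genotype how samples were taken, so p-values measure the spread between these samples. Intervals for ratios of summed counts are exact conditional binomial (95%).

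Members and lists were chosen with earlier results of these data known. Values in every library were given for the receptor chains, Ptprc, Cd4, Cd8a, Foxp3, Klrk1 and Gzmb, and for members called, with an unadjusted p below 0.05 or without overlap. From each further list the text names called genes, the 2 most abundant tested genes and up to 2 with the smallest p, and it says where DESeq2 called another. The value of 1 gene under this rule is not reported here. Tested on simulated data from these libraries over 14004 genes, the fit recovered 66 of 100 genes changed 2-fold and 95 of 100 changed 4-fold, with 166 called and 5 false. The changed genes were drawn at random from all 14004, so these rates do not describe the low-count members. No libraries agreed within sampling noise (lowest chi-square per degree of freedom 47.9). Alternatives were DESeq2 1.42.0, limma-voom and limma 3.58.1 on log2 FPKM, other scalings and filters, the replicate number as a block, and leaving out each library. The ratios of Lck, Zap70 and Cd2 to Cd3e and the alternatives for ratios of summed counts were chosen after seeing the data.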

Additional observations from a re-analysis of the deposited data

Results flagged for a closer look

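Among the 112 groups of 4 libraries checked for a library far from the other 3, 3 had one, and chance flags about 1 in 20 groups, or 5.6 here. Tyrobp stood at 3.14 CPM in cKO 4, below the other cKO libraries, which lay between 4.95 and 5.18 CPM. Rasgrp1 stood at 31.7 CPM in WT 1, below the other WT libraries, which lay between 40.7 and 41.2 CPM. Areg stood at 22.3 CPM in WT 2, below the other WT libraries, which lay between 46.9 and 51.9 CPM. None of the 3 genes was called, and no measured member had such a library.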

How the results depend on the processing

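Over all genes edgeR called 185, limma-voom 170, edgeR with library size only 256, DESeq2, which also filters genes differently, 1266, edgeR without the low-count filter 349 and limma on log2(FPKM + 1) without a filter 19, and leaving out 1 library gave 8 to 495. Of the members edgeR called 1, DESeq2 6, and 0 passed with at least 1 CPM in 4 libraries or with limma on log2(FPKM + 1) or log2(FPKM + 0.1), where Ctla4 was not among the genes tested. Leaving out 1 library gave 0 to 2 members, 0 without cKO 1 or any single WT library and 2, Ctla4 and Lck, without cKO 4. Limma on log2(FPKM + 1) without a filter called Cd4 (adjusted p = 0.0457) and not Ctla4.

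Some fold changes changed sign, none of them of a called gene. Il2rb became 0.23 with limma-voom, 0.022 with log2(FPKM + 1), filtered or not, and 0.21 with log2(FPKM + 0.1). Il2rg became 0.013 with limma-voom or library size only, 0.057 with log2(FPKM + 1), filtered or not, and 0.077 with log2(FPKM + 0.1). Icos became 0.062 with limma-voom and 0.051 with log2(FPKM + 0.1), Klrk1 -0.015 with limma-voom, and Ltb 0.017 with log2(FPKM + 0.1). Rasgrp1 became -0.0019 with DESeq2, -0.0086 with limma-voom and -0.0087 without a filter. Leaving out 1 library gave -0.50 to 0.14 for Cd3e, -0.47 to 0.24 for Il2rb, -0.20 to 0.23 for Il2rg, -0.86 to 0.55 for Icos, -0.22 to 0.67 for Thy1, -0.31 to 0.10 for Ptprc, -0.16 to 0.51 for Cd69, -0.44 to 0.42 for Klrk1, -0.12 to 0.080 for Rasgrp1, -0.70 to 0.38 for Ltb, -0.16 to 0.093 for Tyrobp, -0.066 to 1.09 for Prf1, -0.050 to 0.19 for H2-D1 and -0.12 to 0.16 for the log2 ratio of Cd3e to Ptprc. The causes were not tested.

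With the replicate number as a block, 216 genes and 1 member were called (Ctla4, adjusted p = 0.0251), Zbtb16 lost its call (0.0679), Lck had an adjusted p of 0.109, and the signs of Il2rb (0.18), Il2rg (0.018), Icos (0.16) and Rasgrp1 (-0.0066) changed. Same-numbered libraries did not deviate together throughout (correlations -0.13, 0.17, 0.098 and 0.26). The best match of cKO 2 was WT 2 and that of cKO 4 was WT 4. For cKO 1 it was WT 4 and for cKO 3 it was WT 1. Such correlations cannot show whether the numbers pair the samples. The exact sign-flip p of Cd3e over Ptprc was 1, where 0.125 is the smallest possible.

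Depth limits Cd4, Cd8a, Ctla4, Foxp3, Cd27 and Cd28, which had 0 to 7 reads in each WT library, so folds for these rest on few WT reads.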

Other observations

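The 6 further lists held 41 genes with a row that were below the filter. Of these, 4, or 9.76% (Ubash3a, Gzmm, Tigit and Ccl5), had every cKO library above every WT library in CPM, and 0 had the reverse. The share of all genes in the higher direction was 4.07%. It includes genes above the filter, so it is not a like background for these 41. They were named after their values were seen. Ccl5, a chemokine of effector T cells, rested on the fewest reads, at 5, 1, 6 and 4 counts in cKO and 0, 1, 0 and 0 in WT, so cKO 2 and WT 2 differ by their scaling alone.

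The 11 Skint genes of keratinocytes were all tested. Of these, 10 had a log2 fold change above 0, and 0 were called by edgeR or by DESeq2. An unadjusted p below 0.05 was found for 3, against 18.6% of all tested genes. Their median log2 fold change was 0.81. Skint10 had 28.6, 93.0, 91.9 and 26.1 CPM in cKO and 34.7, 26.6, 32.5 and 16.4 CPM in WT, and Skint2 had 16.9, 30.2, 38.5 and 12.8 CPM in cKO and 15.0, 12.5, 19.2 and 9.02 CPM in WT. As for Skint5, cKO 2 and cKO 3 were the high libraries of both.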
